A study of Homo sapiens with 9 samples.

Results

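The collagen genes are the protein-coding genes whose symbol is COL, a type number, the letter A and a chain number, and 43 of the 31589 genes listed in the deposited tables are of this kind. They were told apart by the class of their protein, which gave 11 fibrillar collagens, 6 basement membrane collagens, 9 FACIT collagens (chains that sit on the surface of fibrils and carry interrupted triple helices), 4 transmembrane collagens, 5 beaded filament collagens of type VI, 2 multiplexins, 3 network-forming collagens, 1 anchoring fibril collagen and 2 others. The members were picked out by name and not by any measured value, though with earlier results of these data known.

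RNA came from spinal cord organoids (SCOs), three-dimensional cultures of neural tube tissue made from human induced pluripotent stem cells of the WTC line, whose genotype the labels give as WT. The line carried a reporter switched on by SOX10, and SCOs of its clones C2, C36 and C40 were pooled per clone before extraction, with indels in the other SOX10 allele of C36 and C40. There were 3 libraries each of SCOs kept with vehicle (FGF alone), exposed to valproic acid (VPA) or exposed to VPA + Rapamycin. The study describes VPA as given together with FGF, so vehicle and VPA do not compare FGF with its absence. VPA is an inhibitor of histone deacetylases and known teratogen, and Rapamycin an inhibitor of mTOR complex 1. The labels give an exposure of 96 h where the study's text gives a shorter one. The library labels carry the same 3 prefixes in every condition, in step with the replicate number, but do not tie a prefix or a replicate number to a clone. The main tests leave this possible match out, so that p-values measure the spread between these libraries. Bulk RNA cannot tell fewer cells of a type from less RNA per cell.

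Collagens are trimers of chains wound into a triple helix, secreted into the extracellular matrix and assembled there. Fibrillar chains of types I, II, III, V and XI build fibrils, type IV chains build the sheet under epithelia and around vessels, and type VI chains build beaded filaments around cells. In the developing neural tube type IV collagen lies in the basement membrane around the neuroepithelium, type II collagen is made in and beside the notochord and floor plate, and type I and III collagens belong mostly to the surrounding mesenchyme.

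The libraries held between 15290299 and 17417338 counts in genes. Collagen genes took 0.194 to 0.267% of the counts of the vehicle libraries, 0.324 to 0.339% with VPA and 0.26 to 0.291% with VPA + Rapamycin, so that the conditions did not overlap in this share save for the upper end of vehicle and the lower end of VPA + Rapamycin. The neural progenitor markers SOX2 and PAX6 had 4175 to 4883 and 4652 to 5365 normalised counts, which are counts after TMM scaling. The conditions overlapped in both, but the whole list was not flat. Of 10 progenitor markers tested with VPA against vehicle, HES5 was higher and NKX6-1, HOXC6 and HOXB8 lower at an adjusted p of 0.05. Of 6 neuronal markers 4 were lower. These 6 summed to 20010, 27200 and 34760 normalised counts in vehicle replicates 1, 2 and 3 and to 18640 to 19920 with VPA. Vehicle replicate 1 was thus close to the VPA libraries. Of 7 neural crest markers 1 was higher and 3 lower, with SOX10 among the lower. Of all genes tested, 16.4% were higher and 15.7% lower. In the share of collagen genes vehicle replicate 1 was the high one, with 0.267% against 0.207 and 0.194% in vehicle replicates 2 and 3. Vehicle replicate 3 stood apart in mesenchymal markers. There 4 of 10, DCN, LUM, PRRX1 and TWIST1, had over 3 times the count of either other vehicle library. DCN and PRRX1 were at 0 in both other vehicle libraries. For COL3A1, COL6A3, COL12A1 and COL23A1 the log2 fold changes of VPA against vehicle are also given without vehicle replicate 3 below, as are the summed mesenchymal markers.

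Of the 43 collagen genes, 33 passed the filter on low counts in at least 1 comparison and 10 in none. The latter, COL5A3, COL4A3, COL4A4, COL19A1, COL21A1, COL17A1, COL6A5, COL6A6, COL15A1 and COL10A1, had at most 14 counts in any library. A member that passed only through the group where it is high was picked in part by its difference, so that counts among tested members describe those members alone. With VPA against vehicle COL12A1 (1, 0 and 37 counts in vehicle) and COL28A1 (6, 2 and 6 with VPA) are among these and stay in the counts of calls below. COL8A1 (8, 6 and 7 counts in vehicle) is another, though it was not called. With VPA + Rapamycin against VPA, COL3A1 (8, 10 and 4 counts with VPA + Rapamycin) is among these and stays in the count of those that fell. With VPA + Rapamycin against vehicle, COL12A1 is again among these and stays in the count of those that rose.

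Levels of different genes were compared per kb of the gene length in the tables. This length is a single value per gene, such as 14738 bases for COL4A1 and 19293 for COL4A2, and may differ from the transcripts present. The order of genes, the class shares and the size of ratios between chains rest on it. In vehicle SCOs the highest collagen transcripts were COL6A1, a chain of type VI collagen, with 972 ± 103 normalised counts per kb (mean ± SD, n = 3 in every group), COL2A1, the chain of type II collagen, with 711 ± 198, and COL5A2, a chain of type V collagen, with 561 ± 25.2. COL6A2 followed with 394 ± 90.3, COL11A1 with 307 ± 25.9 and COL26A1 with 269 ± 88.1 normalised counts per kb. In this order neighbours overlapped between libraries except COL5A2 and COL6A2, whose ranges were 532 to 579 and 330 to 497 normalised counts per kb. With VPA the order was COL6A2 (1025 ± 34.7), COL6A1 (888 ± 32.6), COL5A2 (786 ± 13.9), COL2A1 (668 ± 43.3), COL1A2 (473 ± 57.7) and COL1A1 (455 ± 70.0), and with VPA + Rapamycin COL6A1 (1054 ± 146) and COL6A2 (922 ± 111) were again ahead of COL2A1 (615 ± 46.1) and COL5A2 (532 ± 70.0).

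Fibrillar chains made up 40 to 45.2% of the summed collagen counts per kb in vehicle libraries, 43 to 45.4% with VPA and 33.5 to 40.1% with VPA + Rapamycin. Beaded filament chains made up 27.6 to 29.4%, 27 to 29.1% and 29.7 to 36.4% in the same order. Basement membrane chains had 9.98 to 10.2% in vehicle libraries and 7.33 to 7.61% with VPA, without overlap, and the multiplexins had 1.47 to 2.51% and 4.21 to 4.5%. A share also depends on the other classes. The summed level of basement membrane chains overlapped, at 427 to 579 normalised counts per kb in vehicle and 501 to 535 with VPA. FACIT chains overlapped between vehicle (4.8 to 8.1%) and VPA (7.36 to 8.3%), as did transmembrane chains (2.6 to 4.07% and 2.81 to 3.34%).

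**Figure D1:**
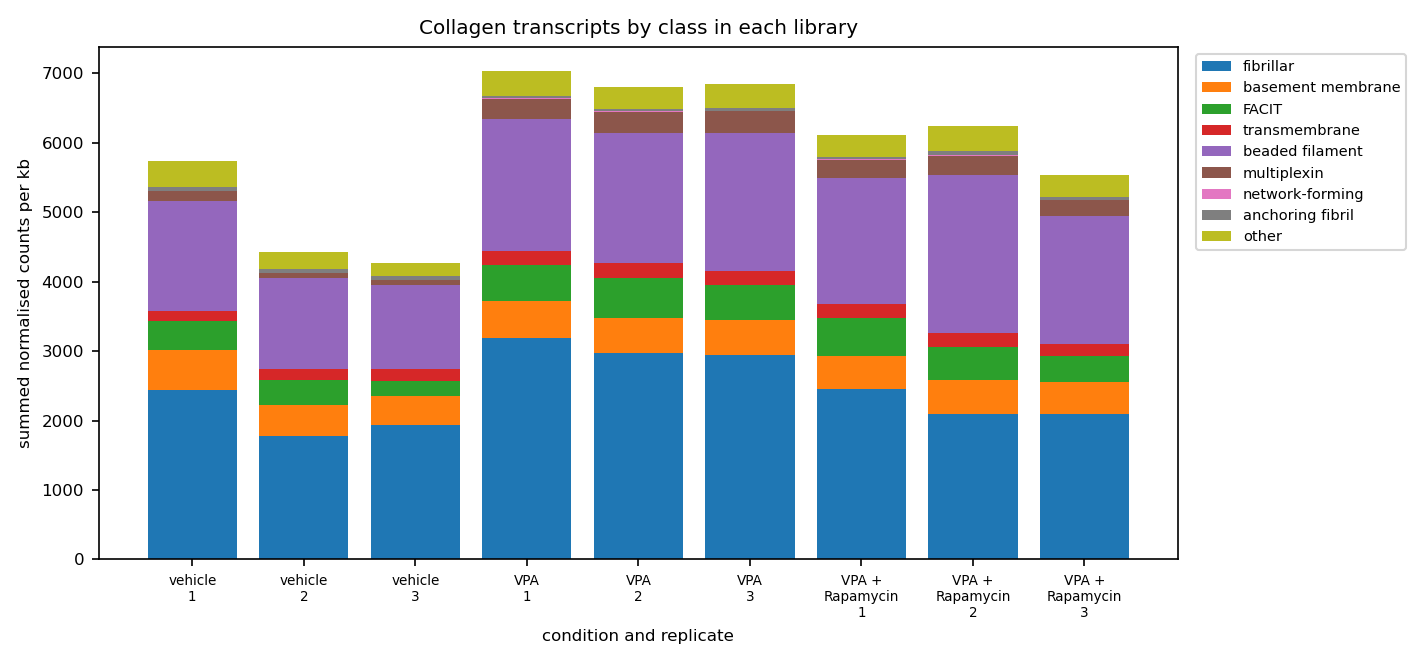
Summed normalised counts per kb of the collagen genes in each of the 9 libraries (y axis), stacked by class. Fibrillar and beaded filament chains make up most of every bar, and all 3 VPA bars are taller than any vehicle bar.

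Promoter windows of 300 bases (250 before and 50 after the RefSeq start, GRCh38.p14) were held for 32 of the 43 genes, 44 windows in all. The stretches shown are the 121 bases shared by the windows of COL4A6 and COL4A5, which lie within the 379 bases between the starts of these genes, transcribed away from each other and unequal in their differences with VPA, and the bases before the starts of COL6A2 and COL12A1, whose levels differed from vehicle in both treated conditions. Capitals mark the TATA box letters TATAAA, the CCAAT box and the GC box letters GGGCGG, each read on either strand. The first lies at chrX:108439588-108439708 (plus strand), the next at chr21:46097862-46098096 (plus strand) and the last at chr6:75206054-75206303 (minus strand). The COL6A2 stretch holds 235 of the 250 bases before the RefSeq start. It stops short of that start, at the last base before the gene as annotated.
COL4A6-COL4A5: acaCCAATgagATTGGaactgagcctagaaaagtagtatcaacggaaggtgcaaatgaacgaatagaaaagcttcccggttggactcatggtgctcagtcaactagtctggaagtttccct
COL6A2: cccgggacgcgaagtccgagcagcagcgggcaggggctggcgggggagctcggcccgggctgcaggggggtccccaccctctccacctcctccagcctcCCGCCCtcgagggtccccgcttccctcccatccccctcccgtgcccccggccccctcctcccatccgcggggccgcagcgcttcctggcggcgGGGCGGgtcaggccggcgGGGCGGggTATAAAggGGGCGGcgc
COL12A1: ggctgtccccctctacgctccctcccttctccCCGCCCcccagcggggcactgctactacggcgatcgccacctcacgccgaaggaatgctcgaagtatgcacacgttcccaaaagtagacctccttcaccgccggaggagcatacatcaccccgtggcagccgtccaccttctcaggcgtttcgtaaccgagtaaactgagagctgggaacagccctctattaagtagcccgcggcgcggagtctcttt
No window of a collagen gene held TGACTCA, the AP-1 motif, on either strand, which 4.95% of all 35116 windows held. With 44 collagen windows and a share this low, 0 matches say little. The 11 members without a window were not read for any motif. They were COL1A1, COL1A2, COL2A1, COL3A1, COL5A2, COL9A3, COL14A1, COL20A1, COL6A1, COL6A5 and COL8A1, and include most of those that fell when Rapamycin was added to VPA. TATAAA was in 18.2% of collagen windows, among them that of COL6A2, and in 11.5% of all windows. CCAAT was in 31.8% of collagen windows and 34.6% of all, and GGGCGG in 54.5% and 45.0%. The CCAAT matches between COL4A6 and COL4A5 lie near each other on opposite strands. A match is a description of the letters and no sign of binding.

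The comparison of VPA with vehicle asked how the drug alone changed the SCOs. Among 32 collagen genes tested, 13 rose (40.6%) and 2 fell (6.25%), where 16.4% of all 17360 genes tested rose and 15.7% fell. The median log2 fold change was 0.38 over these 32 genes and -0.0030 over all genes tested. By class, 6 of 10 fibrillar chains rose, 1 of 4 basement membrane chains, 2 of 6 FACIT chains, 1 of 3 transmembrane chains, 1 of 3 beaded filament chains, the only multiplexin tested and 1 of 2 network-forming chains, and the 2 that fell were the anchoring fibril chain and 1 of the 2 others. The count of called members was 9 without VPA replicate 1. In that fit calls over all genes were fewer too, with 1902 higher and 1708 lower in place of 2840 and 2728.

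**Figure D2:**
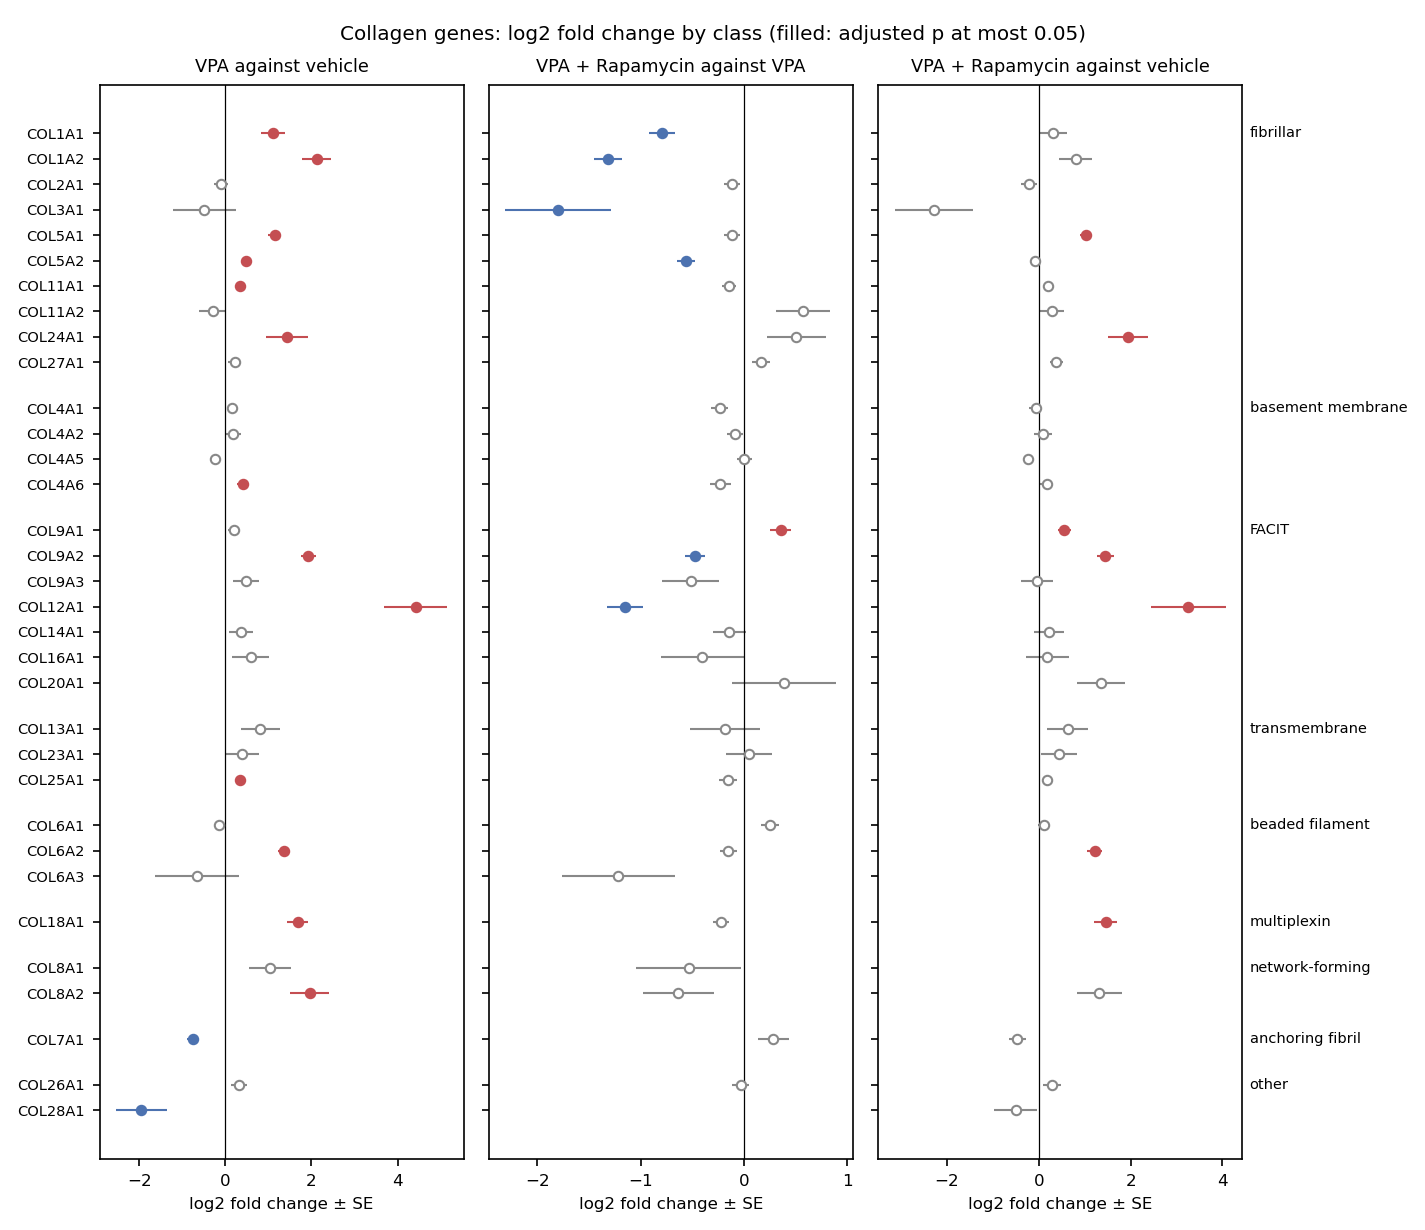
Log2 fold change ± SE (x axes, which differ in scale) of the 33 tested collagen genes (rows, by class) in the 3 comparisons. Filled points passed an adjusted p of 0.05, red for higher and blue for lower, open points did not, and a gene without a point was not tested in that comparison. Most filled points are red against vehicle and blue in VPA + Rapamycin against VPA.

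COL1A1 and COL1A2 encode the chains of type I collagen, the main fibril of skin, bone and tendon. COL1A1 had 3299, 1689 and 1189 normalised counts in the vehicle libraries, 5230, 3905 and 4254 with VPA and 3219, 2338 and 2150 with VPA + Rapamycin. Every VPA library was above every other library, while vehicle and VPA + Rapamycin overlapped. The log2 fold change of VPA against vehicle was 1.11 (SE 0.283, adjusted p = 0.0124), and the call was lost with DESeq2 (adjusted p = 0.0534), without vehicle replicate 2 (0.0595) and without VPA replicate 1 (0.0536). COL1A2 had 1424, 474 and 1708 normalised counts in vehicle, 6020, 4876 and 4936 with VPA and 2704, 1556 and 2074 with VPA + Rapamycin. It rose by a log2 fold change of 2.12 (SE 0.339, adjusted p = 0.0010), with no VPA library near the other libraries.

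COL5A1 and COL5A2 encode the chains of type V collagen, which starts fibrils and sets their width. COL5A1 had 1047, 991 and 727 normalised counts in vehicle, 1928, 1937 and 2298 with VPA and 1865, 1903 and 1913 with VPA + Rapamycin. All 6 treated libraries were above all vehicle libraries, and the log2 fold change with VPA was 1.15 (SE 0.143, adjusted p = 0.000232). COL5A2 had 4261, 3965 and 4312 normalised counts in vehicle, 5784, 5978 and 5816 with VPA and 4565, 3624 and 3704 with VPA + Rapamycin. Here only the VPA libraries stood apart, and COL5A2 rose by 0.48 on the log2 scale (SE 0.0906, adjusted p = 0.00263).

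COL11A1, whose chain replaces or joins type V chains in fibril cores, had 2702, 3053 and 2606 normalised counts in vehicle, 3597, 3611 and 3513 with VPA and 3154, 3310 and 3190 with VPA + Rapamycin. The groups did not overlap and the log2 fold change with VPA was 0.35 (SE 0.0977, adjusted p = 0.0189), but the adjusted p was 0.0728, 0.0859 and 0.0611 without VPA replicate 1, 2 or 3. COL24A1, a minor fibrillar chain, had 6.84, 29.4 and 24.5 normalised counts in vehicle, 59.2, 73.4 and 32.8 with VPA and 63.9, 79.8 and 90.6 with VPA + Rapamycin. The lowest VPA library was just above the highest vehicle library. Its log2 fold change of 1.44 (SE 0.490, adjusted p = 0.0434) was lost with protein-coding genes only (adjusted p = 0.0505), without vehicle replicate 1 (0.067) and without VPA replicate 1 (0.114) or 2 (0.167).

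The other fibrillar chains tested did not pass. COL2A1 had 6208, 3657 and 4339 normalised counts in vehicle, 4620, 4614 and 4118 with VPA and 4432, 4025 and 3831 with VPA + Rapamycin, and its log2 fold change was -0.10 (SE 0.163, adjusted p = 0.674). COL3A1, the chain of type III collagen in soft connective tissue, had 7.82, 11.96 and 86.9 normalised counts in vehicle, 32.6, 29.6 and 15.01 with VPA and 7.86, 9.62 and 4.16 with VPA + Rapamycin. The vehicle mean of COL3A1 rests on replicate 3. For COL3A1 the log2 fold change with VPA was -0.49 (SE 0.738, adjusted p = 0.649), and without that library it was 1.37 (adjusted p = 0.0676). COL11A2, a partner of COL11A1, had 78.2, 42.4 and 61.3 normalised counts in vehicle, 63.1, 41.8 and 45.0 with VPA and 63.9, 80.8 and 78.1 with VPA + Rapamycin. COL27A1 had 573 to 854 normalised counts in vehicle and 812 to 907 with VPA, and with VPA against vehicle it passed only without vehicle replicate 1 (log2 fold change 0.35).

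**Figure D3:**
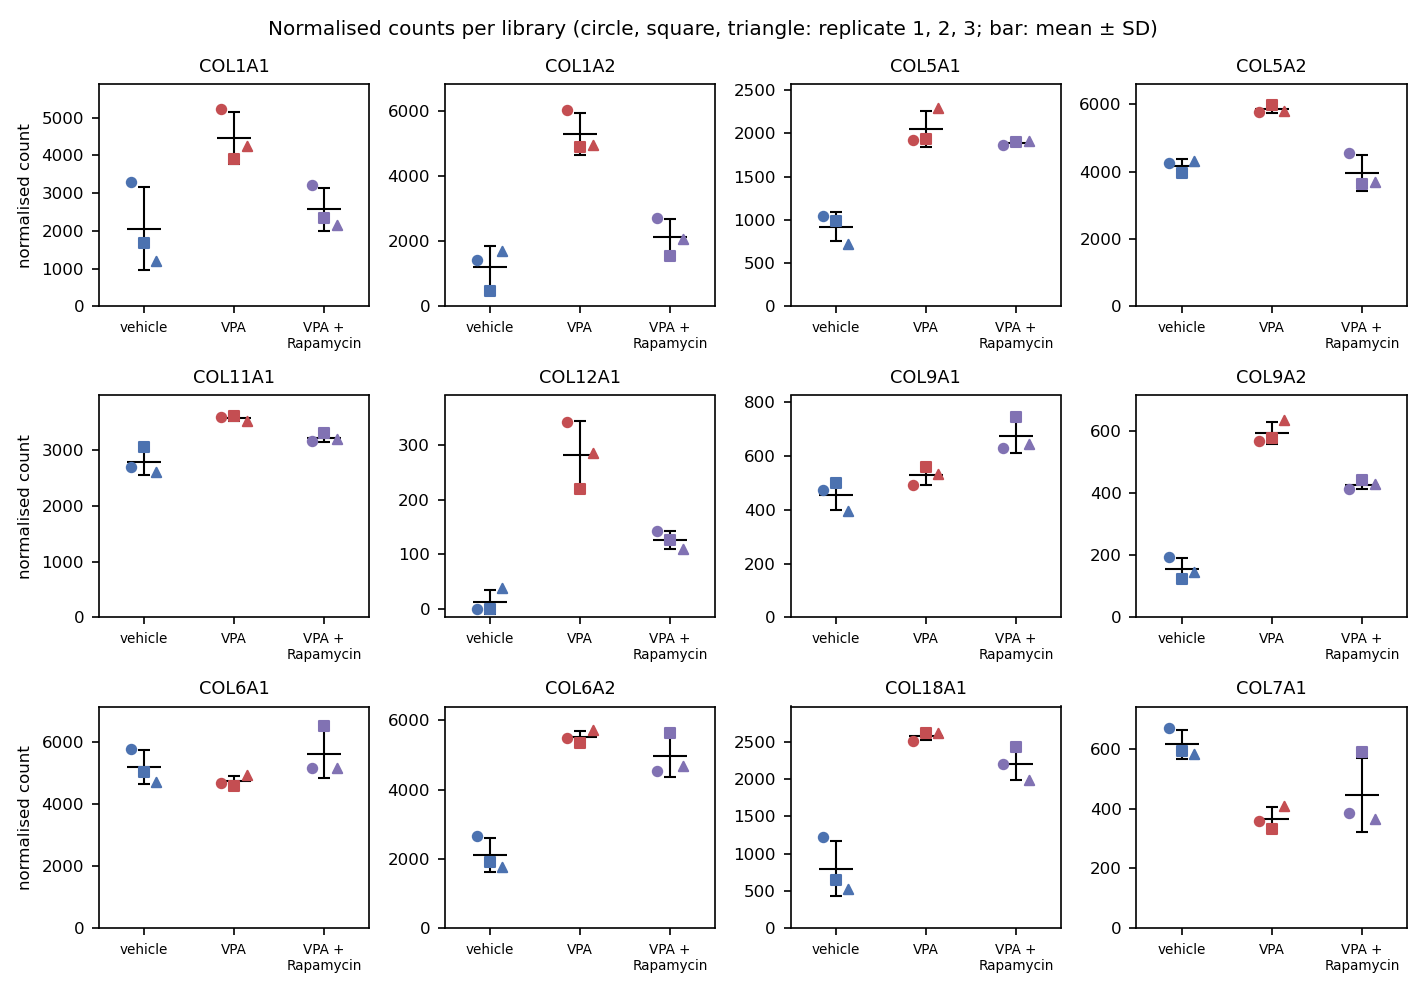
Normalised counts (y axes, linear) of 12 collagen genes in each library, with circles, squares and triangles for replicates 1, 2 and 3 and bars for the mean ± SD of 3 libraries. COL1A1, COL1A2 and COL5A2 are highest with VPA alone, COL5A1, COL6A2 and COL18A1 are above vehicle in all 6 treated libraries, and COL7A1 is lower in all VPA libraries than in any vehicle library.

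The FACIT chains showed the largest and some of the smallest differences. COL12A1, whose type XII collagen links fibrils in tissue under tension, had 1, 0 and 37 counts in the vehicle libraries, 347, 215 and 305 with VPA and 146, 132 and 105 with VPA + Rapamycin. Every VPA library was far above the highest vehicle library, which was again replicate 3. The log2 fold change was 4.42 (SE 0.732, adjusted p = 0.00122), and 8.79 without vehicle replicate 3, where the vehicle group holds a single count and the estimate depends on the prior count.

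COL9A1, COL9A2 and COL9A3 encode the chains of type IX collagen, which decorates type II fibrils in cartilage and the eye. COL9A2 had 195, 122 and 146 normalised counts in vehicle, 565, 578 and 634 with VPA and 412, 440 and 428 with VPA + Rapamycin. The 3 groups did not overlap, and the log2 fold change with VPA was 1.93 (SE 0.175, adjusted p = 3.67e-05), the smallest adjusted p of the collagen genes in this comparison. COL9A1 had 475, 498 and 394 normalised counts in vehicle, 490, 559 and 533 with VPA and 631, 746 and 644 with VPA + Rapamycin. Vehicle and VPA overlapped for COL9A1 and the log2 fold change was 0.20 (SE 0.132, adjusted p = 0.268). COL9A3 had 72.3, 41.3 and 40.9 normalised counts in vehicle, 59.2, 75.4 and 83.5 with VPA and 62.9, 55.8 and 33.3 with VPA + Rapamycin. It did not pass and overlaps TCFL5 on the opposite strand, which had a mean of 531 counts against 58.8 for COL9A3.

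Of the other FACIT chains, COL14A1, which regulates the growth of fibrils, had 2453, 2156 and 870 normalised counts in vehicle, 2340, 2697 and 2071 with VPA and 2886, 2128 and 1413 with VPA + Rapamycin. Vehicle replicate 3 was the low one. With VPA against vehicle the log2 fold change of COL14A1 was 0.37 (SE 0.281, adjusted p = 0.345), and it passed only with no filter on low counts. Leaving out 1 library took it as low as 0.035. For VPA + Rapamycin against vehicle it was -0.11 without vehicle replicate 3. COL16A1 had 11 to 37 counts and COL20A1 5 to 28 counts over the 9 libraries, and neither passed in any comparison.

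Among beaded filament chains, COL6A1 and COL6A2 lie on chromosome 21 and assemble with a further chain such as that of COL6A3. COL6A2 had 2679, 1912 and 1777 normalised counts in vehicle, 5484, 5358 and 5725 with VPA and 4550, 5646 and 4695 with VPA + Rapamycin. All treated libraries were above all vehicle libraries, and the log2 fold change with VPA was 1.37 (SE 0.142, adjusted p = 8.25e-05). COL6A1 had 5804, 5053 and 4728 normalised counts in vehicle, 4690, 4607 and 4942 with VPA and 5172, 6532 and 5186 with VPA + Rapamycin. Vehicle overlapped with both treated conditions, while the VPA + Rapamycin libraries were all above the VPA libraries. The log2 fold change of COL6A1 with VPA against vehicle was -0.14 (SE 0.102, adjusted p = 0.318). COL6A3 had 6, 0 and 66 counts in vehicle, 18, 12 and 18 with VPA and 5, 5 and 10 with VPA + Rapamycin, so that it was a small part of type VI transcripts everywhere. Its log2 fold change with VPA was -0.66 (SE 0.974, adjusted p = 0.640), and 2.31 (adjusted p = 0.0418) without vehicle replicate 3.

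COL18A1, the multiplexin whose cleavage releases endostatin, had 1225, 646 and 529 normalised counts in vehicle, 2512, 2609 and 2618 with VPA and 2205, 2421 and 1987 with VPA + Rapamycin. Treated and vehicle libraries did not overlap. With VPA the log2 fold change was 1.68 (SE 0.241, adjusted p = 0.000522). SLC19A1 overlaps COL18A1 on the opposite strand with a mean of 569 counts against 1880, and the strand setting of the counting was not given in the sources used here.

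In the basement membrane class, COL4A6 had 366, 299 and 386 normalised counts in vehicle, 480, 476 and 445 with VPA and 371, 418 and 404 with VPA + Rapamycin. COL4A5, its neighbour on chromosome X, had 2008, 1779 and 2085 normalised counts in vehicle, 1677, 1680 and 1672 with VPA and 1539, 1755 and 1738 with VPA + Rapamycin. VPA libraries were thus the higher for COL4A6 and the lower for COL4A5, without overlap with vehicle in either gene. The log2 fold change was 0.40 (SE 0.139, adjusted p = 0.0454) for COL4A6 and -0.23 (SE 0.102, adjusted p = 0.101) for COL4A5. The call of COL4A6 was lost with DESeq2 (adjusted p = 0.0528), without a filter (0.0533), with a replicate block (0.0829) and with protein-coding genes only (0.0565). It was also lost without vehicle replicate 2 (0.180) and without VPA replicate 1 (0.135), 2 (0.139) or 3 (0.0924).

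COL4A1 and COL4A2, the chains of the common basement membrane network, are transcribed away from each other on chromosome 13 and overlap in the annotation used. COL4A1 had 1893, 1553 and 1309 normalised counts in vehicle, 1947, 1811 and 1615 with VPA and 1637, 1434 and 1482 with VPA + Rapamycin, with a VPA against vehicle log2 fold change of 0.17 (SE 0.137, adjusted p = 0.383). COL4A2 had 4652, 3166 and 2324 normalised counts in vehicle, 4042, 3656 and 3889 with VPA and 3788, 3843 and 3261 with VPA + Rapamycin, with a VPA against vehicle log2 fold change of 0.18 (SE 0.192, adjusted p = 0.498). Both overlapped between groups, and both passed without vehicle replicate 1, at 0.31 and 0.48.

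COL25A1, a transmembrane collagen of neurons, had 1124, 1301 and 1165 normalised counts in vehicle, 1424, 1630 and 1523 with VPA and 1478, 1414 and 1219 with VPA + Rapamycin. The VPA libraries were above the vehicle libraries. The log2 fold change was 0.34 (SE 0.109, adjusted p = 0.0334). Its call was lost with a replicate block (adjusted p = 0.0721), without vehicle replicate 2 (0.0525) and without VPA replicate 1 (0.0602), 2 (0.159) or 3 (0.0997). COL23A1 had 55.7, 40.2 and 137 normalised counts in vehicle, 113, 122 and 73.2 with VPA and 104, 125 and 88.5 with VPA + Rapamycin, and with VPA against vehicle it passed only without vehicle replicate 3 (log2 fold change 1.09). COL13A1 had 9 to 54 counts over the 9 libraries and did not pass.

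Of the smaller classes, COL8A2, a chain of the hexagonal network under endothelia, had 11.7, 5.44 and 16.4 normalised counts in vehicle, 51.3, 48.9 and 32.8 with VPA and 39.3, 25.0 and 20.8 with VPA + Rapamycin. The VPA libraries were all above the vehicle libraries, with a log2 fold change of 1.96 (SE 0.444, adjusted p = 0.00682), while its partner COL8A1 had 8, 6 and 7 counts in vehicle, 20, 11 and 15 with VPA and 13, 7 and 11 with VPA + Rapamycin and did not pass with VPA (log2 fold change 1.04, SE 0.494, adjusted p = 0.129). COL7A1, whose anchoring fibrils tie epithelia to the tissue below, had 668, 592 and 582 normalised counts in vehicle, 358, 332 and 409 with VPA and 385, 589 and 364 with VPA + Rapamycin. The VPA libraries were below the vehicle libraries, and the log2 fold change was -0.75 (SE 0.132, adjusted p = 0.00164). COL28A1 had 13, 13 and 26 counts in vehicle, 6, 2 and 6 with VPA and 10, 15 and 13 with VPA + Rapamycin. Its log2 fold change was -1.95 (SE 0.586, adjusted p = 0.0255), which was lost with DESeq2 (adjusted p = 0.0529), without vehicle replicate 2 (0.051) or 3 (0.102) and without VPA replicate 1 (0.0638), 2 (0.111) or 3 (0.0702). COL26A1 had 1154, 779 and 611 normalised counts in vehicle, 1102, 1019 and 1065 with VPA and 978, 1125 and 1008 with VPA + Rapamycin, and with VPA against vehicle it passed only without vehicle replicate 1 (log2 fold change 0.60).

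The comparison of VPA + Rapamycin with VPA asked what Rapamycin changed in SCOs exposed to VPA. Of 32 collagen genes tested, 1 rose and 6 fell (18.8%), where 3.01% of all 17317 genes rose and 3.73% fell. The median log2 fold change was -0.15 over the collagen genes and 0.0039 over all genes. The genes that fell were the fibrillar COL1A1, COL1A2, COL3A1 and COL5A2 and the FACIT chains COL9A2 and COL12A1, and COL9A1 rose. Of the 15 chains tested outside these classes 0 passed in edgeR's test and 0 with DESeq2, and 5 had an unadjusted p under 0.05. In a single fit of all 9 libraries, where the groups share an estimate of the spread, only COL5A2 of the collagen genes passed, and over all genes 44 rose and 69 fell in place of 522 and 646.

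COL1A2 fell by 1.32 on the log2 scale (SE 0.135, adjusted p = 1.08e-05) and COL1A1 by 0.79 (SE 0.123, adjusted p = 0.000682). The 9-library fit gave adjusted p = 0.0799 for COL1A2 and 0.216 for COL1A1. In both genes the VPA + Rapamycin libraries were below all VPA libraries, as the values above show. COL5A2 had a log2 fold change of -0.56 (SE 0.0838, adjusted p = 0.000542, and 0.0205 in the 9-library fit). COL3A1, with 4 to 10 counts against 16 to 33, had a log2 fold change of -1.80 (SE 0.509, adjusted p = 0.040), lost in the 9-library fit (0.347), without VPA replicate 1 (0.172) or 2 (0.153) and without any one VPA + Rapamycin library (0.0724, 0.0556 and 0.161).

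COL12A1 had a log2 fold change of -1.15 (SE 0.175, adjusted p = 0.000618) and COL9A2 of -0.47 (SE 0.0989, adjusted p = 0.00738), with 9-library values of 0.342 and 0.166. The VPA + Rapamycin libraries were between the VPA and the vehicle libraries for both genes. COL9A1 had a log2 fold change of 0.36 (SE 0.101, adjusted p = 0.0406). It was lost in the 9-library fit (0.220), without VPA replicate 1 (0.163), 2 (0.0841) or 3 (0.0837) and without VPA + Rapamycin replicate 2 (0.141) or 3 (0.0724).

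COL6A1 had a log2 fold change of 0.25 (SE 0.0866, adjusted p = 0.0927), and passed with no filter on low counts (adjusted p = 0.0301) and without VPA + Rapamycin replicate 1 (0.0498). Members that differed from vehicle with VPA did not all pass here. COL5A1 had a log2 fold change of -0.12 (SE 0.0800, adjusted p = 0.440), COL6A2 of -0.15 (SE 0.0822, adjusted p = 0.303) and COL18A1 of -0.22 (SE 0.0792, adjusted p = 0.101). COL6A2 passed without VPA + Rapamycin replicate 2 (-0.26), as did COL18A1 (-0.30). COL7A1 had 0.29 (SE 0.152, adjusted p = 0.287), COL24A1 0.51 (SE 0.284, adjusted p = 0.317) and COL8A2 -0.63 (SE 0.345, adjusted p = 0.302).

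The comparison of VPA + Rapamycin with vehicle, which shares its libraries with the comparisons above, asked what remained different. Of 31 collagen genes tested, 7 rose (22.6%) and 0 fell in edgeR's test, with 2 lower at an unadjusted p under 0.05 and 1 (COL3A1) lower with DESeq2, where 9.81% of all 17383 genes rose and 9.22% fell. The median log2 fold change was 0.28 against -0.00087 over all genes. COL5A1 rose by 1.03 (SE 0.137, adjusted p = 0.00101), COL6A2 by 1.22 (SE 0.157, adjusted p = 0.000876) and COL18A1 by 1.45 (SE 0.250, adjusted p = 0.00366). COL9A2 rose by 1.45 (SE 0.182, adjusted p = 0.000752), COL24A1 by 1.94 (SE 0.431, adjusted p = 0.012), COL9A1 by 0.56 (SE 0.136, adjusted p = 0.0178) and COL12A1 by 3.26 (SE 0.817, adjusted p = 0.0196). The count was 11 without vehicle replicate 1, where over all genes 2204 rose and 2110 fell in place of 1705 and 1602. COL12A1 was lost with DESeq2 (adjusted p = 0.194) and without VPA + Rapamycin replicate 1 (0.0736) or 2 (0.0618), and was 7.62 without vehicle replicate 3, a value that again depends on the prior count, while COL9A1 was lost without VPA + Rapamycin replicate 1 (0.0543), 2 (0.0876) or 3 (0.0540).

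The type I chains did not pass in this comparison. COL1A1 had a log2 fold change of 0.31 (SE 0.298, adjusted p = 0.502) and COL1A2 of 0.80 (SE 0.360, adjusted p = 0.144). COL1A1 passed without vehicle replicate 1 (log2 fold change 0.82), and COL1A2 without vehicle replicate 3 (1.14) and with no filter on low counts (0.81). Both passed with a replicate block, COL1A1 at 0.42 (adjusted p = 0.0457) and COL1A2 at 0.95 (adjusted p = 0.00153). COL5A2 had -0.09 (SE 0.115, adjusted p = 0.644) and COL7A1 -0.47 (SE 0.180, adjusted p = 0.0919). COL7A1 passed without VPA + Rapamycin replicate 2 (-0.72), with no filter (-0.46) and with a replicate block (-0.50). COL3A1 had -2.29 (SE 0.848, adjusted p = 0.083), and its adjusted p was 0.0269 with DESeq2, 0.00311 with no filter on low counts, 0.0464 in the 9-library fit and 0.017 without vehicle replicate 1. Its vehicle level rests on replicate 3, and without that library the log2 fold change of COL3A1 was -0.44 (SE 0.705, adjusted p = 0.700).

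Ratios between chains, taken per kb in each library, do not depend on the scaling of libraries. COL6A2 to COL6A1 was 0.402 ± 0.0485 in vehicle, 1.15 ± 0.00577 with VPA and 0.876 ± 0.0207 with VPA + Rapamycin, and the 3 conditions did not overlap. COL5A1 to COL5A2 was 0.147 ± 0.0306, 0.234 ± 0.0256 and 0.322 ± 0.0434, again without overlap. COL1A1 to COL1A2 was 2.49 ± 1.63 in vehicle, with libraries from 0.791 to 4.05, and 0.959 ± 0.0423 with VPA and 1.41 ± 0.271 with VPA + Rapamycin. The wide vehicle range covers the other conditions. COL4A1 to COL4A2 was 0.637 ± 0.102, 0.607 ± 0.0556 and 0.55 ± 0.0553 with overlap throughout, and COL6A3 to COL6A1 was at most 0.00388 in any library. The ratios of COL4A6 to COL4A5 (0.228 ± 0.0117, 0.356 ± 0.014 and 0.303 ± 0.00569) and of COL9A2 to COL9A1 (0.588 ± 0.15, 1.93 ± 0.142 and 1.09 ± 0.07) were looked at after their values were seen. With 3 libraries against 3 no exact two-sided permutation test can go below 0.1, so none is given.

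**Figure D4:**
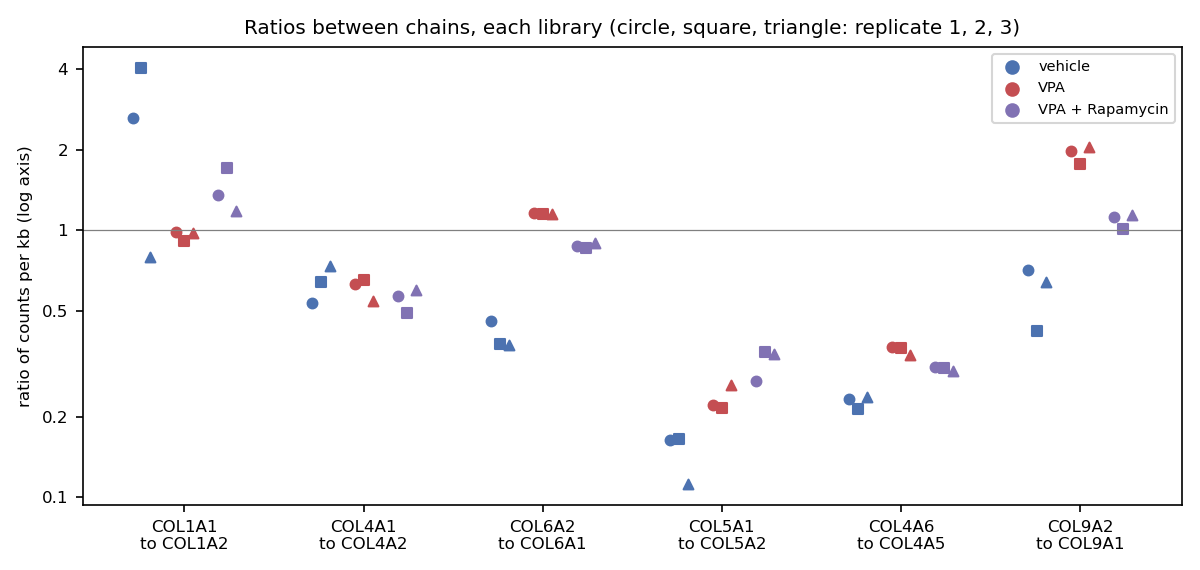
Ratio of normalised counts per kb between 6 pairs of chains (x axis) in each library (y axis, log scale), coloured by condition, with circles, squares and triangles for replicates 1, 2 and 3. For COL6A2 to COL6A1 the 3 VPA libraries lie above 1 and all vehicle libraries below 0.5.

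Chains need enzymes and chaperones to be modified, folded, trimmed and cross-linked, and of a list of 31 such genes 30 were tested in each comparison. With VPA against vehicle 10 rose and 1 fell, where 16.4% of all genes tested rose and 15.7% fell. Their median log2 fold change was 0.033. Leaving out VPA replicate 1 gave 7 calls and leaving out vehicle replicate 3 gave 17. Over all genes the former fit had 1902 higher and 1708 lower and the latter 3326 and 3150, in place of 2840 and 2728. Among those that rose were PPIB, a prolyl isomerase of the endoplasmic reticulum (0.56, SE 0.117, adjusted p = 0.00433), COLGALT1, which adds galactose to hydroxylysine (0.79, SE 0.120, adjusted p = 0.000762), and LOXL1, a cross-linking oxidase (0.93, SE 0.155, adjusted p = 0.00124). The propeptide proteases TLL1 (1.62, SE 0.372, adjusted p = 0.00723), TLL2 (1.47, SE 0.278, adjusted p = 0.00252) and ADAMTS3 (1.32, SE 0.306, adjusted p = 0.00749) rose, as did PCOLCE and PCOLCE2, which enhance trimming of the C-propeptide, P4HB and LOXL2. LOXL4 fell (-0.96, SE 0.297, adjusted p = 0.0291). P4HB, LOXL2 and LOXL4 lost their call in most fits that left out a library.

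LOXL1 had 619, 437 and 413 normalised counts in vehicle, 977, 880 and 964 with VPA and 1058, 1044 and 941 with VPA + Rapamycin. COLGALT1 had 1941, 1673 and 1428, then 2802, 2860 and 3105, and then 2269, 2374 and 1998 normalised counts. The treated libraries were above vehicle for both genes. SERPINH1, the collagen chaperone HSP47, had 3017 to 5160 normalised counts in vehicle and 3289 to 3533 with VPA, with overlap.

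With VPA + Rapamycin against VPA 4 of the 30 fell and MIA3, a factor for the export of procollagen, rose (0.28, SE 0.0811, adjusted p = 0.0424), where 3.01% of all genes rose and 3.73% fell. The call of MIA3 was lost in 5 of the 6 fits that left out a library (adjusted p = 0.0663 to 0.184). Those that fell were PLOD1, a lysyl hydroxylase (-0.42, SE 0.0935, adjusted p = 0.0111), CRTAP (-0.33, SE 0.0751, adjusted p = 0.0117), COLGALT1 (-0.40, SE 0.0798, adjusted p = 0.00543) and ADAMTS3 (-0.93, SE 0.184, adjusted p = 0.00497). In the fit of all 9 libraries the adjusted p of these 5 was 0.130 to 0.271. Leaving out VPA replicate 2 or VPA + Rapamycin replicate 3 left 3 and 2 calls. Over all genes leaving out these libraries gave 175 and 217 higher and 297 and 346 lower, in place of 522 and 646. Against vehicle, VPA + Rapamycin had PPIB, TLL2, ADAMTS2 and LOXL1 higher, where 9.81% of all genes rose and 9.22% fell. In edgeR's test and with DESeq2 0 were lower, with 4 lower at an unadjusted p under 0.05. Leaving out vehicle replicate 1 or 3 gave 8 and 11 calls. Over all genes these fits had 2204 and 2087 higher and 2110 and 1987 lower, in place of 1705 and 1602. ADAMTS2, a protease of the N-propeptide, lost its call without vehicle replicate 2 (adjusted p = 0.130) and without VPA + Rapamycin replicate 1 (0.102), 2 (0.102) or 3 (0.0898).

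Of 7 collagen receptors tested with VPA against vehicle, the integrin chains ITGA1 (2.32, SE 0.308, adjusted p = 0.000332), ITGA2 (1.43, SE 0.333, adjusted p = 0.00778) and ITGA11 (2.30, SE 0.283, adjusted p = 0.000214) rose and the receptor kinase DDR1 fell (-0.41, SE 0.119, adjusted p = 0.0217). This count and those of the next lists in the same comparison stand beside the 16.4% of all genes that rose and the 15.7% that fell. ITGA11 had 44.0, 64.2 and 25.6 normalised counts in vehicle, 238, 221 and 204 with VPA and 101, 147 and 122 with VPA + Rapamycin, and the groups did not overlap. Of 9 genes for proteins that bind fibrils, THBS1 (2.04, SE 0.148, adjusted p = 9.8e-06), THBS2 and FN1 rose and TNXB fell (-1.81, SE 0.215, adjusted p = 0.000185). With Rapamycin added to VPA, ITGA1 (-0.76, SE 0.214, adjusted p = 0.040), ITGA11 (-0.84, SE 0.171, adjusted p = 0.0062), THBS1 (-0.92, SE 0.161, adjusted p = 0.00199) and LUM (-1.37, SE 0.190, adjusted p = 0.000282) fell. Of all genes 3.01% rose and 3.73% fell in that comparison. These lists were not read in the 9-library fit, where over all genes 44 rose and 69 fell. Of 7 genes of collagen breakdown, MMP2, a gelatinase, rose with VPA against vehicle (0.99, SE 0.229, adjusted p = 0.00742) while the inhibitors TIMP1 (-0.57, SE 0.153, adjusted p = 0.0155) and TIMP3 (-0.85, SE 0.105, adjusted p = 0.000222) fell. TIMP3 alone of these 7 was called when Rapamycin was added to VPA, and it rose (0.33, SE 0.0803, adjusted p = 0.0187).

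Markers of other cell types that make collagen were read beside these results. The 10 mesenchymal markers summed to 816 to 1695 normalised counts in vehicle, 1505 to 1801 with VPA and 1164 to 1253 with VPA + Rapamycin. The vehicle sum of 1695 is that of replicate 3, and the other vehicle libraries had 816 and 1139, below every treated library, a reading without replicate 3 that was chosen after seeing the data. Of 9 tested, THY1 alone rose with VPA against vehicle (0.80, SE 0.122, adjusted p = 0.00076), and PDGFRB (adjusted p = 0.049), TWIST1 (0.0398) and LUM fell when Rapamycin was added. Of all genes 16.4% rose and 15.7% fell with VPA against vehicle, and 3.01% rose and 3.73% fell when Rapamycin was added. The 7 cartilage markers summed to 2622 to 3036, 2653 to 2729 and 2599 to 2879 normalised counts, with ACAN (1.62, SE 0.322, adjusted p = 0.00337) and CNMD (2.35, SE 0.236, adjusted p = 6.86e-05) higher and SOX9 lower with VPA, and both ACAN and CNMD lower again when Rapamycin was added. The 7 markers of mesoderm and muscle summed to 75.7 to 83.1 normalised counts in vehicle and 164 to 176 with VPA. MYOD1 was at 0 in vehicle replicates 2 and 3. The 5 endothelial markers summed to 98.1 to 151 and 123 to 176 and 0 of 3 tested passed with VPA in edgeR's test (2 at an unadjusted p under 0.05), and the 5 epithelial markers summed to 134 to 805 and 511 to 944, with KRT19 higher. The part of these cells in the collagen differences was not tested.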

How the data were processed

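Bulk RNA sequencing covered 9 SCO libraries, 3 in each of the groups vehicle, VPA and VPA + Rapamycin that the sample labels name. The authors aligned and counted reads with tools that the submitters' processing notes name as HISAT2 2.0.5 and featureCounts 1.5.0-p3, and deposited 3 tables, 1 for each pair of conditions, with the raw count per gene. The deposited gene length column (unit: other, in bases) was used only to scale levels per kb. No build is named, but 99.8% of genes in each table had the chromosome, start and end of GENCODE release 29 on GRCh38. Strand setting and annotation release were not given in the sources used here. The 36 columns of size-factor-normalised values and FPKM, and the authors' columns of group means, fold changes and p-values, were not used.

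Counts were analysed in R 4.3.3. Within each pair's table genes were filtered with filterByExpr, libraries scaled by TMM and tested with the quasi-likelihood F test of edgeR 4.0.16, with Benjamini-Hochberg adjustment over every gene tested and a call at an adjusted p of at most 0.05. Rose and fell are used of called genes only, and SEs were derived by dividing each log2 estimate by the square root of its F value. The fit was checked on simulated counts with known changes. Levels were scaled with TMM factors over the 9 libraries and the 26871 genes present in all 3 tables. Depth was 15290299 to 17417338 counts per library, and 3 libraries per group limit the precision of every SD.

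Alternatives were DESeq2 1.42.0, other normalizations (RLE, upper quartile), other filters, 1 fit over the 9 libraries, a replicate block, only the protein-coding genes, a minimum absolute log2 fold change of 1 and leaving out each library. The members and lists were chosen with earlier results of these data known. Values in every library are given for members called in any comparison, their tested partner chains and the tested chains among the 2 most abundant of each class, and overlapping genes are named where their mean count is above 10% of the member's. Promoter windows are those of RefSeq on GRCh38.p14.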

Additional observations from a re-analysis of the deposited data

How the results depend on the processing

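Of 49 called log2 fold changes of collagen and collagen biosynthesis genes none changed sign in an alternative that gave a value, and 15 of 66 uncalled ones did. Low counts gave no value in 23 cases, most of them where at least 10 counts were asked of every library. The causes of the changes were not tested. Called collagen genes numbered 15 for VPA against vehicle, 7 for VPA + Rapamycin against VPA and 7 for VPA + Rapamycin against vehicle. Leaving out 1 library gave 9 to 18, 5 to 7 and 5 to 11. Calls over all genes moved as well, to 1791 to 3480, 175 to 533 and 761 to 2204 higher in the same order. Those lower numbered 1599 to 3230, 297 to 670 and 534 to 2110. For VPA + Rapamycin against VPA, 1 was left with all 9 libraries in 1 fit and 3 where a log2 fold change of 1 or more in size was also asked. Over all genes these settings left 44 and 64 higher and 69 and 124 lower. The biosynthesis genes called numbered 11, 5 and 4, and leaving out 1 library gave 7 to 17, 2 to 7 and 3 to 11. That minimum size left 4, 0 and 2, and over all genes 1180, 64 and 746 higher and 786, 124 and 375 lower. No filter on low counts gave 8 for VPA + Rapamycin against VPA and 7 for VPA + Rapamycin against vehicle, and the 9-library fit gave 0 and 7. Over all genes no filter gave 673 and 1959 higher and 923 and 1908 lower. The 9-library fit gave 44 and 2343 higher and 69 and 2204 lower. COL4A2 was in place 9 of the vehicle levels per kb and in place 4 with no length scaling.

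The replicate numbers follow label prefixes that the conditions share, but they were not shown to pair the libraries. Correlations of deviations between same-numbered libraries ran from -0.0798 to 0.224 over 15445 genes. In the 3 comparisons 4, 2 and 4 of 6 libraries correlated best with their own number. With a replicate block the called collagen genes were 13, 7 and 11 and the biosynthesis genes 11, 5 and 7. Over all genes 2598, 539 and 2104 were higher and 2367, 705 and 1936 lower. With this block COL4A6 (adjusted p = 0.0829), COL25A1 (0.0721) and P4HB (0.0528) lost their call for VPA against vehicle and MIA3 (0.0586) for VPA + Rapamycin against VPA, and COL1A1 (0.0457), COL1A2 (0.00153), COL27A1 (0.0406) and COL7A1 (0.0326) gained one for VPA + Rapamycin against vehicle. The log2 fold changes of VPA against vehicle turned with the block to 0.16 for COL3A1 and 0.37 for COL6A3.

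Leaving out 1 library turned the sign of uncalled log2 fold changes, whose ranges follow. For VPA against vehicle they were -0.26 to 0.14 for COL2A1, -0.96 to 1.37 for COL3A1, -0.022 to 0.48 for COL4A2 and -1.23 to 2.31 for COL6A3. For VPA + Rapamycin against VPA they were -0.032 to 0.061 for COL4A5, -0.42 to 0.084 for COL14A1, -0.15 to 0.19 for COL23A1 and -0.096 to 0.0080 for COL26A1, and COL4A5 had -7.56e-05 with DESeq2 and -0.0031 with no filter on low counts. For VPA + Rapamycin against vehicle they were -0.38 to 0.022 for COL2A1, -0.19 to 0.073 for COL4A1, -0.11 to 0.39 for COL4A2, -0.21 to 0.29 for COL9A3, -0.11 to 0.49 for COL14A1, -0.21 to 0.54 for COL16A1 and -0.0087 to 0.19 for COL6A1.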
